A study of Mus musculus with 11 samples.

Results

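Carbonic anhydrase genes were examined in dendritic cells sorted from mouse spleen. Carbonic anhydrases are zinc enzymes that interconvert carbon dioxide and water with bicarbonate and a proton. Cytosolic forms act inside the cell, and membrane-bound forms act at its outer face, where they work together with bicarbonate transporters and proton exporters. Red blood cells are the classical site of the cytosolic enzymes, and hypoxia is the classical inducer of a membrane-bound one, Car9.

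The 9 genes, Car1, Car2, Car3, Car4, Car7, Car8, Car9, Car12 and Car13, were found among 22180 genes tested. They were selected on a list of family names together with their values in the comparison between exposed and naive cells, which earlier results of these same arrays had already shown. The levels, differences and calls of the 9 genes are therefore a description. Their p-values are not printed, and a call or its absence is not evidence about a gene selected in this way. Where 2 probesets named the same gene, the one with the higher mean over all arrays was used.

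The exposed group held 5 arrays of splenic dendritic cells from C57BL/6 mice that had received Eµ-Myc lymphoma, a B cell lymphoma driven by a Myc transgene under the immunoglobulin heavy-chain enhancer, by transfer. The naive group held 6 arrays of the same cells from C57BL/6 mice without lymphoma. Per the labels, the sort took cells positive for MHC class II and CD11c and left them over 95% pure, and lymphoma spleens carried an average tumour load between 10 and 36% of lymphocytes. The protocol text common to all arrays also mentions CD11c.Cre mice and floxed C/EBPβ mice, but the strain label of all 11 arrays is C57BL/6. The sources used here give neither the age of the mice nor whether arrays are separate mice, so errors and p-values measure the spread between these 11 arrays, which may be technical.

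Values are log2 expression made by the authors with RMA, with 1 value per probeset and array. Array medians lay between 5.53 and 5.61. Itgax, which encodes the CD11c used in the sort, was measured at 11.98 ± 0.13 (SD, n = 5) in exposed and 12.11 ± 0.08 (SD, n = 6) in naive cells. Of 12 dendritic cell markers 10 were measured, and 9 of these lay above the mark for dim genes, all but Clec10a. That mark, 5.60, is the 95th percentile of 1105 olfactory receptor genes, which dendritic cells are not known to use. Deviations from the group means correlated at 0.127 on average between exposed and naive arrays of the same number set, 1 to 3 or 4 to 6. Between opposite sets the mean was -0.127. Deviations cancel within a group, so this second value nearly mirrors the first by construction and is no separate observation. The labels do not explain the array numbers. Differences are therefore also given for either set of arrays separately.

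Of the 9 genes, Car13 and Car2 differed most, and both were higher in exposed cells. In limma's fit over all genes these 2 were called at a Benjamini-Hochberg adjusted p under 0.05, where 0.879% of all genes were called higher and 1.42% were called in either direction. None of the 9 was called lower. At an unadjusted p under 0.05 there were 4 higher and 0 lower among the 9, and 1590 higher and 1120 lower among all 22180 genes. Every exposed array lay above every naive array for the same 2 genes, as it did for 1.42% of all genes. Because the contrast was in view when the genes were listed, nothing is read from these shares. The median difference of the 9 genes was 0.13 on the log2 scale, and that of all 22180 genes was 0.01. In sorted cells profiled in bulk, more expressing cells and more RNA per cell cannot be told apart.

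Mean levels were above the dim mark for Car13, Car2, Car7 and Car9. Car1, Car3, Car4, Car8 and Car12 averaged below it over the 11 arrays, and for those 5 genes a difference between groups lies in the range where signal and background are hard to separate.

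**Figure D1:**
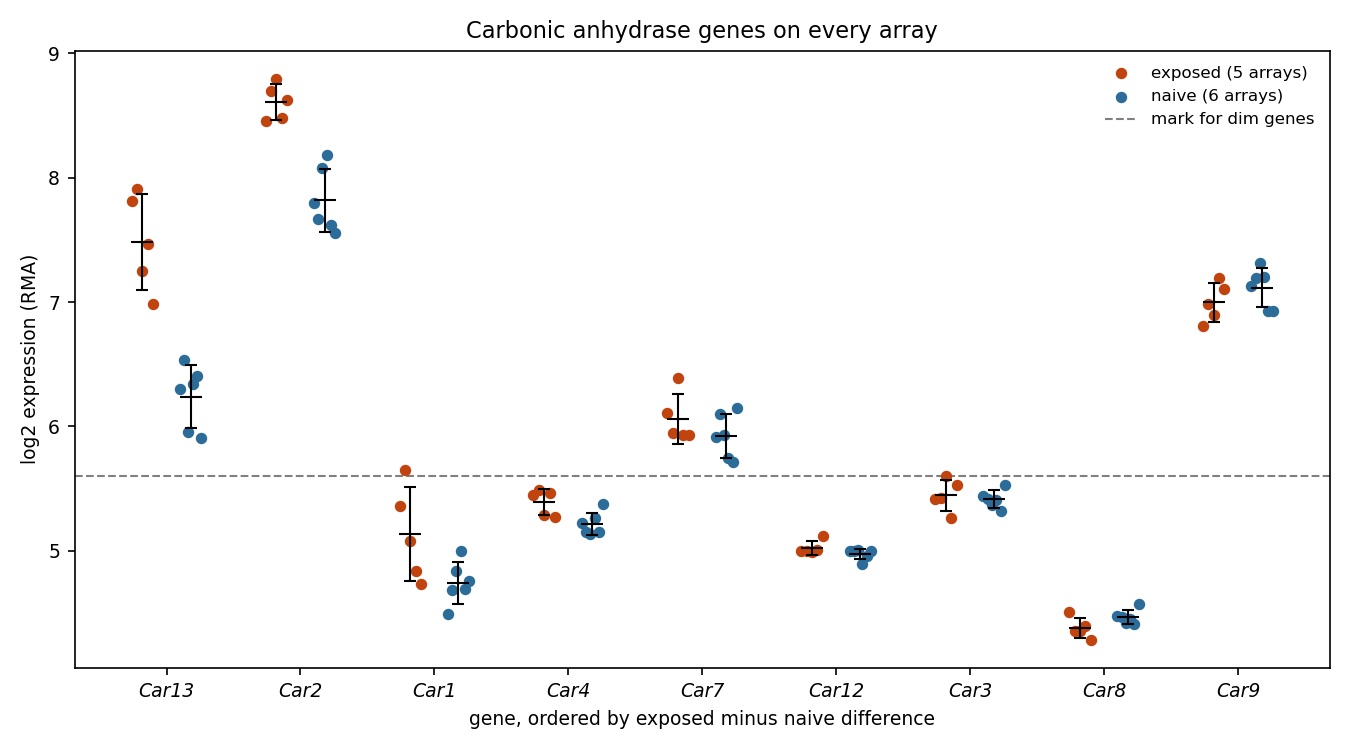
Log2 expression (vertical axis) of each of the 9 genes on every array, with the 5 exposed arrays left of the 6 naive arrays, bars for the group mean ± SD and a dashed line at the dim mark of 5.60. Levels of different genes come from different probes and are not comparable. Exposed and naive points separate without overlap for Car13 and Car2 alone.

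Car13 encodes a cytosolic carbonic anhydrase. Its log2 level was 7.81, 7.91, 7.25, 7.47 and 6.98 on exposed arrays 1, 2, 3, 4 and 6, against 5.90 at the lowest, 6.32 at the median and 6.53 at the highest of the naive arrays (probeset 17396143). All 5 exposed arrays were above the highest naive array, exposed array 6 by the smallest margin. The group means were 7.48 ± 0.38 (SD, n = 5) in exposed and 6.24 ± 0.25 (SD, n = 6) in naive cells. The difference was 1.24 ± 0.16 (SE), or 2.37-fold, with 95% limits of 0.89 and 1.60. A larger positive difference was found for 8 of all genes tested.

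Car2 encodes the cytosolic enzyme of red cells, kidney and osteoclasts, known for its very fast turnover. It was measured at 8.45, 8.70, 8.79, 8.48 and 8.62 on exposed arrays 1, 2, 3, 4 and 6, against 7.56 at the lowest, 7.73 at the median and 8.18 at the highest naive array (probeset 17396162). The 5 exposed arrays lay close together, and the naive arrays were spread more widely below them. The means were 8.61 ± 0.14 (SD, n = 5) in exposed and 7.82 ± 0.26 (SD, n = 6) in naive cells, a difference of 0.79 ± 0.11 (SE; 95% limits 0.55 and 1.04) or 1.73-fold. There were 60 genes with a larger positive difference.

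The differences of both genes had the same sign in each number set. Car13 differed by 1.39 within arrays 1 to 3 and by 1.01 within arrays 4 to 6, and Car2 by 0.80 and 0.77 in the same order. Tested on arrays 1 to 3 alone or on arrays 4 to 6 alone, 0 of the 9 genes were called by limma, with 5 and 2 of them at an unadjusted p under 0.05. Those reduced fits called 11 and 5 genes in all. Blocking on number set gave 1.22 ± 0.16 (SE) for Car13 and 0.79 ± 0.11 (SE) for Car2, and both were called.

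**Figure D2:**
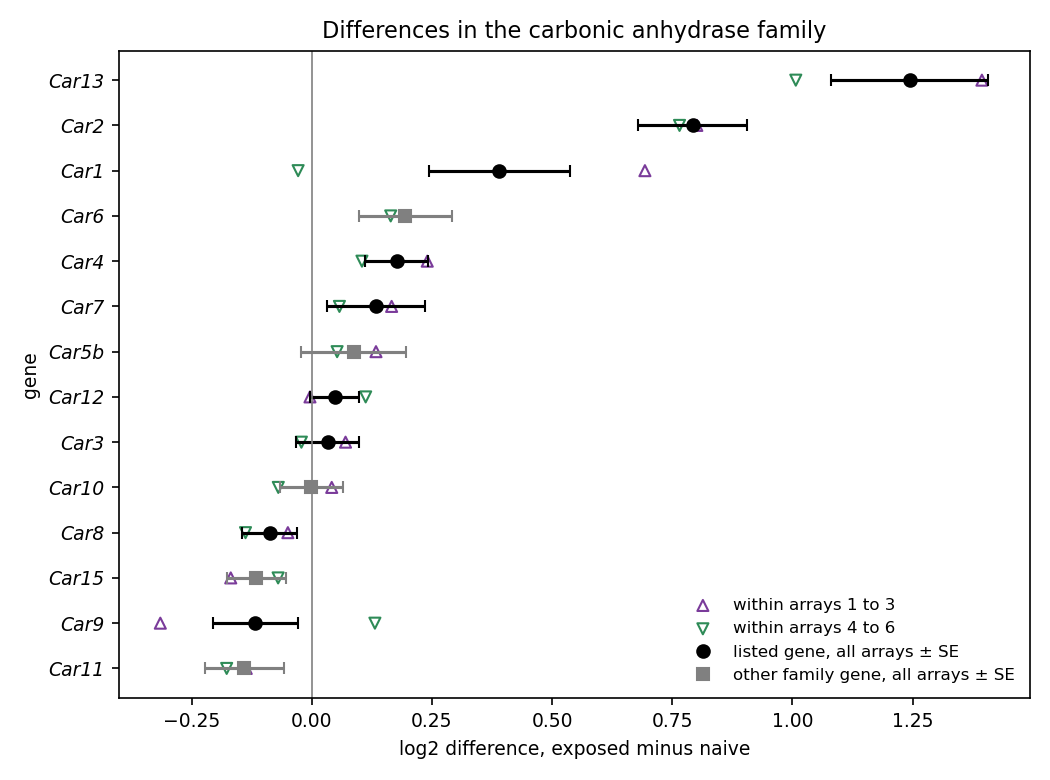
Difference in log2 expression, exposed minus naive (horizontal axis), for the 9 listed genes (black circles) and 5 other family genes (grey squares), with bars of 1 SE from limma. Open triangles pointing up and down give the differences in arrays 1 to 3 and in arrays 4 to 6. The markers of Car13 and Car2 lie to the right of 0 in both number sets, as do those of Car4, Car7, Car5b and Car6 at smaller differences. Those of Car1, Car3 and Car10 do so in arrays 1 to 3 only.

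Car1 encodes a cytosolic enzyme that is abundant in mature red cells. It was measured at 5.36, 5.65, 5.08, 4.83 and 4.74 on exposed arrays 1, 2, 3, 4 and 6, against 4.49 at the lowest, 4.72 at the median and 5.00 at the highest naive array (probeset 17404180). Exposed arrays 1 to 3 lay above all naive arrays, and exposed arrays 4 and 6 lay within the naive range. The difference over all arrays was 0.39 ± 0.15 (SE), and it was not called. Arrays 1 to 3 gave 0.69 and arrays 4 to 6 gave -0.03. On 10 of the 11 arrays its level was below the dim mark.

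Car3 and Car7 are the remaining cytosolic forms. Car3, a slow enzyme best known from muscle and fat, averaged 5.45 ± 0.13 (SD, n = 5) in exposed and 5.41 ± 0.07 (SD, n = 6) in naive cells, a difference of 0.03. A second and much dimmer Car3 probeset, at 3.28 in exposed and 3.35 in naive cells, gave -0.08. When arrays were aligned at their 75th percentile, the brighter probeset changed sign, to -0.003. Car7, known from brain, was measured at 6.11, 5.94, 6.39, 5.93 and 5.93 on exposed arrays 1, 2, 3, 4 and 6, against 5.72 at the lowest, 5.92 at the median and 6.15 at the highest naive array. Its groups overlapped except for exposed array 3, and its difference of 0.13 ± 0.10 (SE) was not called. Without exposed array 3 it was 0.05. On 3 of the 11 arrays Car7 was listed with an identical value, 5.93.

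Car4, Car9 and Car12 encode the listed enzymes that face the outside of the cell, Car4 through a lipid anchor and Car9 and Car12 through a membrane-spanning segment. Car4 was measured at 5.45, 5.49, 5.29, 5.46 and 5.27 on exposed arrays 1, 2, 3, 4 and 6, against 5.13 at the lowest, 5.19 at the median and 5.37 at the highest naive array. Exposed arrays 1, 2 and 4 lay above all naive arrays. The difference of 0.18 ± 0.07 (SE) was not called, with 0.24 in arrays 1 to 3 and 0.10 in arrays 4 to 6.

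Car9 is the family member used as a marker of hypoxia, being a target of the hypoxia-inducible factor. It was measured at 6.81, 6.99, 6.90, 7.19 and 7.11 on exposed arrays 1, 2, 3, 4 and 6, against 6.93 at the lowest, 7.16 at the median and 7.31 at the highest naive array (probeset 17424651). Exposed arrays 1 and 3 were the lowest of all 11, and the other exposed arrays lay inside the naive range. The difference of -0.12 ± 0.09 (SE) was not called, and a second Car9 probeset gave -0.12. It was -0.07 without exposed array 1 and -0.08 without naive array 3. The first probeset did not keep its sign in the 2 number sets. It gave -0.32 within arrays 1 to 3 and 0.13 within arrays 4 to 6. The second probeset, at 6.89 in exposed and 7.02 in naive cells, was negative in both, at -0.02 and -0.21 in the same order.

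The stretch of the Car9 promoter just before its start site is shown because it carries the letters of a hypoxia response element. It is taken from RefSeq, GRCm38.p6, plus strand, chr4:43506946-43507025, and capitals mark the core ACGTG as it reads on the opposite strand.

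Car9: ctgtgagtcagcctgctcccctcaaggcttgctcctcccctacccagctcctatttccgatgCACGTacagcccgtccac

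The core lies 14 bases before the start site at its nearer edge. Both strands of the 250 bases before each start site were searched for the cores ACGTG and GCGTG, whose matches can overlap, also across strands. At least 1 of them is present in 38.6% of 32851 RefSeq promoters, and ACGTG in 16.6%. Promoters of 4 of the 9 genes, 6 promoters in all, were matched in the table. The single promoters of Car4 and Car12 held neither core, and 2 of the 3 Car7 promoters held GCGTG. A match of letters is a description and not a bound site.

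Car12 and Car8 were the least variable of the 9 genes. Car12 averaged 5.02 ± 0.05 (SD, n = 5) in exposed and 4.97 ± 0.04 (SD, n = 6) in naive cells, and 5 of the 11 arrays were listed with the identical value 5.00. Car8, a relative that has lost the enzyme activity and is known for its role in cerebellar neurons, was measured at 4.50, 4.36, 4.35, 4.40 and 4.28 on exposed arrays 1, 2, 3, 4 and 6, against 4.41 at the lowest and 4.57 at the highest naive array. Of the exposed arrays 4 lay below every naive array. The difference of -0.09 ± 0.06 (SE) was not called, and all arrays were below the dim mark.

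Among the remaining family genes, 0 of 5 measured genes passed by limma over all genes, and 0 did at an unadjusted p under 0.05. They were the mitochondrial Car5b (0.09, adjusted p = 0.826), the secreted Car6 (0.19, adjusted p = 0.455), the inactive relatives Car10 (-0.001, adjusted p = 0.998) and Car11 (-0.14, adjusted p = 0.554), and Car15 (-0.12, adjusted p = 0.492). Car5b, Car6 and Car10 averaged below the dim mark. Car5a and Car14 share a probeset with another gene and are not analysed here.

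Car13, Car1, Car3 and Car2 follow each other in this order on chromosome 3 in the GRCm38.p6 annotation, with no other protein-coding gene between them. The 2 genes called are the outer ones of this cluster, and the inner pair, Car1 and Car3, differed by 0.39 and 0.03. On the Car13 side the next measured genes were Rbis at 0.03 (adjusted p = 0.918), the cell cycle transcription factor E2f5 at 0.16 (adjusted p = 0.345) and Lrrcc1 at 0.03 (adjusted p = 0.932), from limma over all genes. On the Car2 side they were Gm9733 at -0.35 (adjusted p = 0.0592) and Sirpb1a at -0.08 (adjusted p = 0.689). None of the 5 flanking genes passed, and at the Car2 side the difference had the opposite sign to that of Car2.

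**Figure D3:**
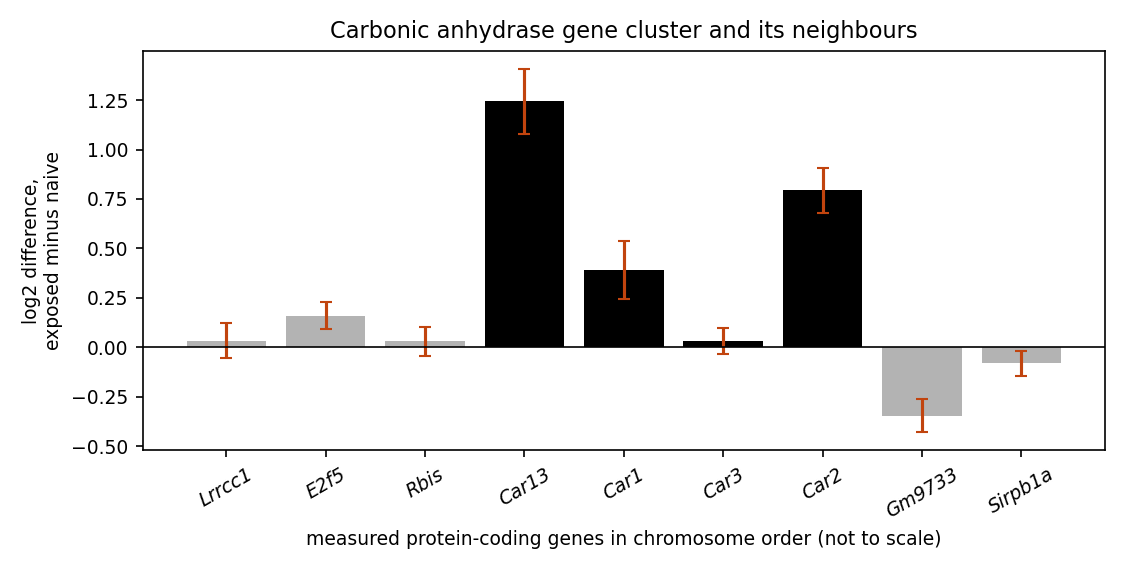
Log2 difference, exposed minus naive (vertical axis, bars with 1 SE from limma), for the measured protein-coding genes around the cluster in chromosome order, which is not to scale. Black bars are carbonic anhydrase genes and grey bars are neighbours. Car13 and Car2 have the tallest bars at 1.24 and 0.79, with Car1 at 0.39 and Car3 at 0.03 between them.

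The 4 clustered genes were also compared array by array after group means had been removed, a measure that does not use the difference between groups. Between Car13 and Car2 Pearson's r over 11 arrays was -0.15 and Spearman's rho -0.12 (permutation test within groups, two-sided, 100000 permutations, p = 0.643 and p = 0.718). Car13 and Car1 had the highest value, an r of 0.58 and a rho of 0.47 (permutation p = 0.136 and p = 0.220, adjusted p = 0.519 and p = 0.725 over the 6 pairs). Without the 2 arrays farthest from the Car13 median their r was 0.47, and with the number set means removed as well it was 0.40. None of the 6 pairs passed, and 11 arrays limit what such a test can detect.

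By the same measure the genes most like Car13 were Net1 (r = 0.96), Loxl3 (0.94), Ndfip1 (0.94), Mmp13 (0.93) and Sh3bp4 (0.93). Those most like Car2 were Nhp2 (r = 0.94), Mif (0.93), Coq7 (0.90), Snhg20 (0.90) and Thoc7 (0.89). These are the highest values among all other genes tested, over 11 arrays each. Mmp13 averaged 4.53, below the dim mark. The lists share no gene. Net1, Loxl3 and Sh3bp4 of the first and Mif of the second were called between exposed and naive cells, as were 1.42% of all genes. The genes were picked as the highest of all tested, so nothing is read from their values or calls.

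Carbon dioxide and acid handling was then followed beyond the family. Of 17 bicarbonate and anion exchangers measured, 1 rose and 0 fell. Slc4a8, which brings sodium and bicarbonate into the cell in exchange for chloride, was measured at 9.34, 9.76, 9.66, 9.52 and 9.52 on exposed arrays 1, 2, 3, 4 and 6, against 8.78 at the lowest, 9.10 at the median and 9.30 at the highest naive array. All exposed arrays were above all naive arrays, array 1 only narrowly. The rise was 0.46 ± 0.09 (SE; limma adjusted p = 0.0291), with 0.48 within arrays 1 to 3 and 0.43 within arrays 4 to 6. It lost its call in limma's fit with the red pulp macrophage, erythroid and haemoglobin covariates described at the end (adjusted p = 0.0804, 0.162 and 0.316). It also lost it without naive array 4, 5 or 6 or exposed array 2, 3 or 4 (0.41 to 0.47, adjusted p between 0.0545 and 0.0879). The red cell anion exchanger Slc4a1 differed by 0.29 ± 0.15 (SE; adjusted p = 0.474).

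Proton and lactate exporters did not pass. Of 13 measured, 0 were called by limma and 1 was higher and 1 lower at an unadjusted p under 0.05. The endosomal sodium-proton exchanger Slc9a9 had the largest difference, -0.35 ± 0.08 (SE; adjusted p = 0.0573). It was measured at 10.54, 10.30, 10.25, 10.77 and 10.61 on exposed arrays 1, 2, 3, 4 and 6, against 10.77 at the lowest and 10.93 at the highest naive array, and no exposed array reached the naive range, array 4 missing it by less than the rounding shows. It passed with a common 75th percentile (-0.38, adjusted p = 0.0289), among genes above the dim mark (-0.35, adjusted p = 0.0359), after blocking on number set (-0.33, adjusted p = 0.0287) and without exposed array 4 (-0.41, adjusted p = 0.0268). The lactate carrier Slc16a1 had a difference of 0.20 (adjusted p = 0.383), and Slc16a3, another lactate carrier, had -0.21 (adjusted p = 0.541).

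The vacuolar proton pump, which acidifies endosomes and lysosomes, gave 0 calls among 23 measured genes, with 1 higher and 1 lower at an unadjusted p under 0.05. Of the 23, 16 had positive differences, the median was 0.04, and the largest was -0.21 in the subunit gene Atp6v0a4 (adjusted p = 0.254), which lay below the dim mark. Proton-sensing receptors and channels gave 0 calls among 7, with 1 lower at an unadjusted p under 0.05. Gpr132 had the largest difference there, -0.25 (adjusted p = 0.159).

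Of 17 hypoxia regulators and targets, 1 rose and 0 fell, and 4 were higher and 3 lower at an unadjusted p under 0.05. Adm, which encodes the vasodilator peptide adrenomedullin, was measured at 6.91, 7.18, 7.42, 6.97 and 6.45 on exposed arrays 1, 2, 3, 4 and 6, against 6.11 at the lowest and 6.43 at the highest naive array. Exposed array 6 exceeded the highest naive array by little, and the others by far more. The rise was 0.76 ± 0.14 (SE; adjusted p = 0.0174), or 1.69-fold, and it lost its call without exposed array 2 (0.71, limma adjusted p = 0.0571) and with the red pulp macrophage, erythroid and haemoglobin covariates (adjusted p = 0.0517, 0.102 and 0.355). The median of the list was -0.01, and Hif1a, which encodes the oxygen-regulated subunit of the factor, differed by 0.01 (limma adjusted p = 0.973). That value is for RNA, and the protein was not measured.

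**Figure D4:**
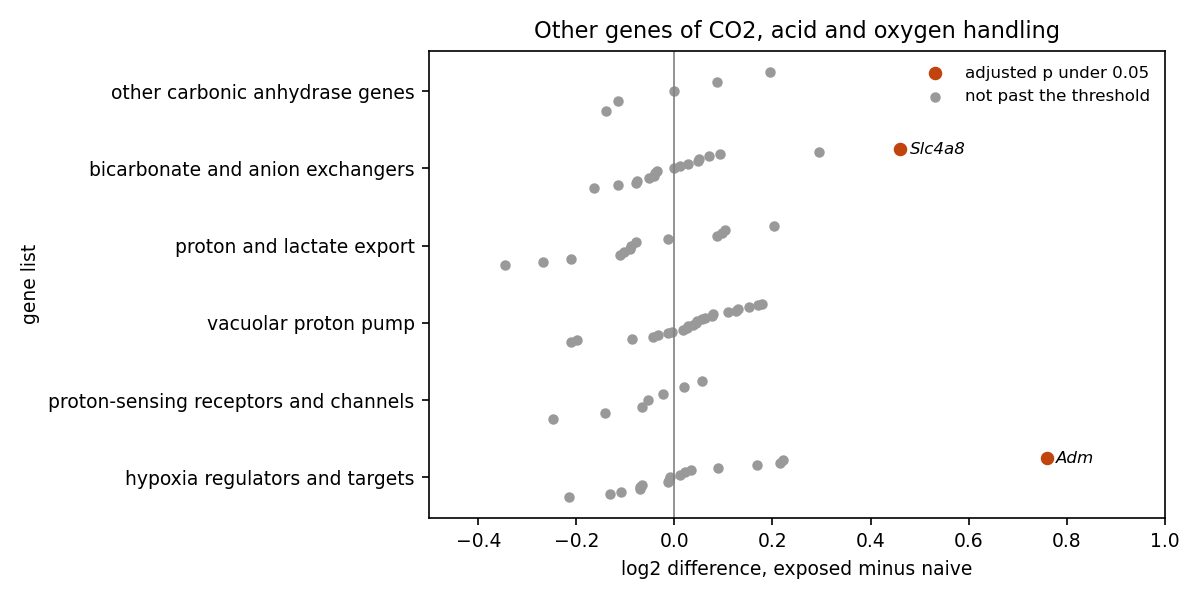
Log2 difference, exposed minus naive (horizontal axis), for every measured gene of 6 lists of carbon dioxide, acid and oxygen handling, with 1 point per gene. Genes past an adjusted p of 0.05 over all genes are larger and named. Slc4a8 and Adm are the named genes, at 0.46 and 0.76.

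Markers of other cells that express carbonic anhydrases were read beside these results. The 5 probesets that list several haemoglobin genes, which name no single gene, had mean levels of 7.23, 6.55, 6.82, 6.32 and 6.57 on exposed arrays 1, 2, 3, 4 and 6, against 5.84 at the lowest and 6.63 at the highest naive array. Exposed arrays 1 and 3 lay above all naive arrays, and in 1 of the 5 probesets all exposed arrays did. Of 12 erythroid markers 5 were measured, Ermap, Epb42, Klf1, Kel and Rhag. All 5 averaged below the dim mark, 0 were called by limma with 1 higher at an unadjusted p under 0.05, 4 were positive, and the mean level ran between 4.74 and 5.01 in exposed and between 4.67 and 4.83 in naive cells.

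With the erythroid marker mean as a covariate, Car13 differed by 1.01 ± 0.13 (SE) and Car2 by 0.80 ± 0.13 (SE), both called, and Car1 by 0.19. With the haemoglobin probeset mean as a covariate, an alternative chosen after seeing the data, the differences were 1.04 ± 0.22 (SE) for Car13 and 0.70 ± 0.16 (SE) for Car2. Neither was then called by limma, though 2 of the 9 genes had an unadjusted p under 0.05, and that fit called 3 genes in all.

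Red pulp macrophage markers had positive differences in 9 of 10, all 10 above the dim mark and 0 called by limma (5 higher and 0 lower at an unadjusted p under 0.05). Their mean level ran between 8.34 and 10.30 in exposed and between 7.80 and 8.87 in naive cells, and exposed arrays 1 and 2 lay above all naive arrays. Each of the 10 differences was positive within arrays 1 to 3 and lower within arrays 4 to 6. In the latter set Cd163 (-0.35), Hmox1 (-0.30), Timd4 (-0.05) and Adgre1 (-0.46) were negative and the rest positive. The macrophage gene Cd5l was the widest apart, at 8.29 ± 1.26 (SD, n = 5) in exposed and 6.40 ± 0.55 (SD, n = 6) in naive cells (adjusted p = 0.0693). With that marker mean as a covariate, Car13 differed by 0.98 ± 0.13 (SE) and Car2 by 0.87 ± 0.13 (SE), both called, and Car1 by 0.24. Among 5 monocyte markers Cx3cr1 rose by 0.46 ± 0.07 (SE; limma adjusted p = 0.00866), and the other 4 were not called. F13a1 of that list averaged below the dim mark. The mean level of the monocyte list ran between 6.96 and 7.24 in exposed and between 6.71 and 7.16 in naive cells. Among 6 T and NK cell markers Ncr1 rose by 0.46 ± 0.09 (SE; limma adjusted p = 0.0289), all naive arrays lying below 4 of the 5 exposed ones. In the T and NK list 5 of 6 differences were positive and 4 genes were higher at an unadjusted p under 0.05. Of these 6 markers, Cd3e, Cd3d, Cd3g and Klrb1c averaged below the dim mark. The mean level of that list ran between 5.50 and 5.82 in exposed and between 5.40 and 5.53 in naive cells, and on 4 of 5 exposed arrays it exceeded the highest naive one. Of the 6 B cell markers measured 0 were called by limma, with 2 higher and 1 lower at an unadjusted p under 0.05, and their mean level ran between 7.09 and 7.44 in exposed and between 7.08 and 7.38 in naive cells. Neutrophil, basophil, platelet, plasmacytoid and stromal lists gave 0 calls, with 1 gene higher in each of the first 2 lists at an unadjusted p under 0.05. Above the dim mark were 1 of 9 neutrophil, 1 of 10 basophil, 1 of 4 platelet, 4 of 4 plasmacytoid and 3 of 5 stromal genes. Covariate fits were made with the red pulp macrophage, erythroid and haemoglobin means only, and not with the other lists. What part any of these cells have in the levels of Car13 and Car2 was not tested further.

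**Figure D5:**
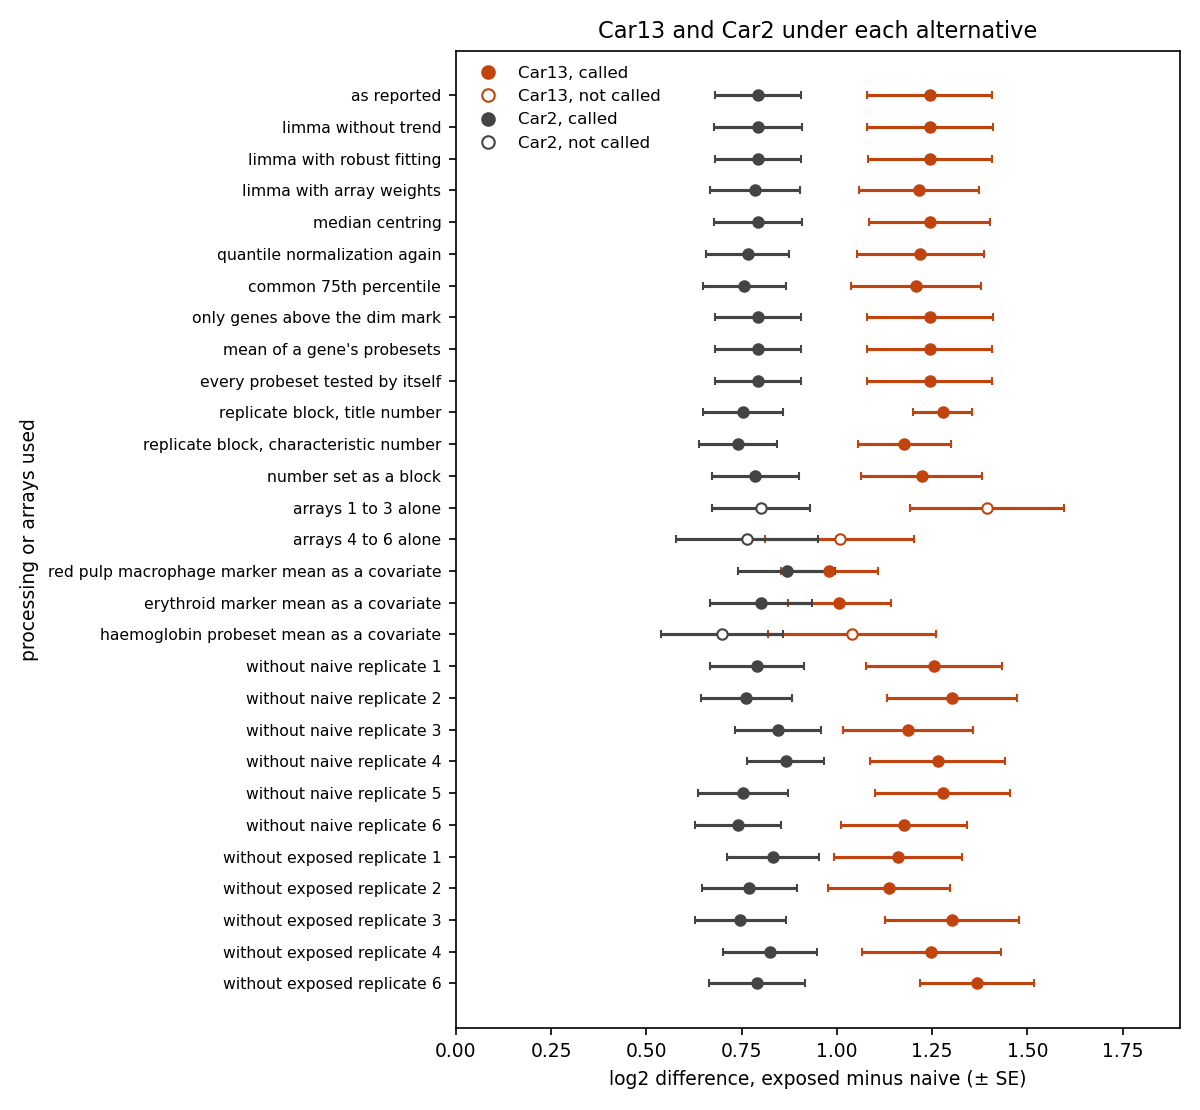
Log2 difference, exposed minus naive, with 1 SE (horizontal axis), of Car13 and Car2 under each processing alternative or choice of arrays (rows). Filled circles were called at an adjusted p under 0.05 over all genes tested, and open circles were not. All differences are positive, and the open circles belong to each number set alone and to the haemoglobin covariate.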

How the data were processed

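The deposited values are log2 expression per probeset and array, made with RMA per the submitters' processing notes. Its version, the build and the annotation are not given in the sources used here. Of 41801 probesets, 7329 are blank on every array and 34472 were used. The probe table names 1 gene for 23521, several for 1814 and none for 9137. No dim gene was removed. Differences are exposed minus naive from limma 3.58.1 (lmFit, eBayes with trend) in R 4.3.3, with Benjamini-Hochberg adjustment over 22180 genes and calls at an adjusted p under 0.05. The fit was tested on simulated data.

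The genes and lists were chosen with earlier results of these data known. Named beyond the family were up to 3 called genes per list and direction, or the largest difference, and 5 likest genes per called member. Slc4a1, Slc16a1, Slc16a3 and Hif1a were named after their values were seen. The last exposed array is 6 in its title and 5 in its characteristic. Alternatives changed the moderation, array weights, normalization, the filter on dim genes, the choice of probeset, blocks, covariates and the arrays used, and the haemoglobin covariate was chosen after seeing the data. The number of arrays limits precision.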

Additional observations from a re-analysis of the deposited data

Results flagged for a closer look

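Of 38 groups checked, those of 19 genes in exposed and in naive cells, 2 held an array far from the rest, where chance gives about 1 in 20. Car12 stood at 5.12 on exposed array 6, next to 5.00 on the nearest exposed array. Gpr132 stood at 11.57 on naive array 2, next to 11.31 on the nearest naive array, and without that array its difference was -0.19.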

How the results depend on the processing

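Car13 and Car2 were higher in exposed cells under all 28 alternatives, Car13 by 0.98 to 1.39 and Car2 by 0.70 to 0.87. Both were called in 25 of them, with 2 carbonic anhydrase genes called in each of the 11 fits without 1 array. As these genes were chosen on the same contrast, the calls describe the fits and are no support for the difference. The count of 2 carbonic anhydrase genes called fell to 0 on arrays 1 to 3 alone, on arrays 4 to 6 alone and with the haemoglobin covariate. Deviations of same-numbered exposed and naive arrays correlated between 0.0880 and 0.231 over 5 pairs. All were positive, but the lowest missed the 0.1 set for every pair, so the fit without the block was kept and shared structure by number was not settled. With the replicate block Car13 gave 1.28 (title number) and 1.18 (characteristic number) and Car2 0.75 and 0.74, all called. Slc4a8 lost its call under either block (0.46, limma adjusted p = 0.0637 and 0.0800), and Adm was called under both. Of the other genes of carbon dioxide, acid and oxygen handling, 2 were called higher, Slc4a8 and the hypoxia list's Adm. That count was 3 blocked on number set, 1 with either replicate block, 0 on each number set alone and with the red pulp macrophage, erythroid or haemoglobin covariate, and between 0 and 2 without 1 array. It was 0 without exposed array 2, and 1 without naive array 4, 5 or 6 or exposed array 3 or 4. Genes called lower numbered 0, against 2 with a common 75th percentile, among genes above the dim mark or blocked on number set, and between 0 and 1 without 1 array. Over all genes, 195 higher and 121 lower calls became 365 and 252 blocked on number set, 114 and 68 with the characteristic's replicate block and 166 and 215 with a common 75th percentile. Without 1 array they ran between 68 and 232 higher and between 36 and 163 lower, and on each number set alone and with the erythroid or haemoglobin covariate 47 or fewer genes were called. The 5 listed genes below the dim mark are limited by signal over background.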
